A study of Mus musculus with 8 samples.

Results

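Iron handling in liver was followed through 10 genes: the hepcidin genes Hamp and Hamp2, the transferrin receptors Tfrc and Tfr2, transferrin (Trf), the ferritin subunits Fth1 and Ftl1, the iron exporter ferroportin (Slc40a1), the hemochromatosis gene Hfe and the ligand gene Bmp6. Every probe on the array whose RefSeq accession names 1 of these genes was taken, which gave 13 probes for 10 of the 19752 gene symbols found on the array. The animals were Rap1 -/- mice (4 livers) and wild-type mice (4 livers), all aged 10 weeks and on a mixed C57BL6/129SV background. Rap1, whose gene symbol is Terf2ip, encodes a protein of the telomere-capping shelterin complex that also binds along chromosome arms. The deletion was constitutive and in the whole body, obtained from a floxed allele with Cre driven by the adenovirus EIIa promoter, and the Cre allele was then bred out. The labels give neither sex nor feeding state. The text of the study speaks of females at this age, and of liver profiles both with and without a stated fast. Whether these livers were fasted is not known here. Whole liver RNA was hybridized, 1 mouse per Agilent 1-colour array, so that fewer cells of a type and less RNA per cell cannot be told apart.

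Hepcidin is a small peptide hormone made by hepatocytes. It binds ferroportin, the exporter through which iron leaves cells, and causes its removal from the membrane, so that hepcidin lowers the iron available in plasma. Its transcription follows iron stores through BMP6, a ligand released by sinusoidal endothelial cells, and a hepatocyte receptor complex that involves HFE and transferrin receptor 2, and it follows inflammation through interleukin 6 and STAT3. Ferritin stores iron inside the cell, transferrin carries it in plasma, and transferrin receptor 1 (Tfrc) takes it up. Ferritin and Tfrc are also controlled after transcription by iron regulatory proteins. For ferritin, array signals of RNA do not fully read this control.

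The mouse has 2 hepcidin genes side by side, and the sequences in front of them are shown because both genes were measured and their values are set side by side below. RefSeq promoter windows (GRCm38.p6, 250 bases before to 50 bases after the start site) were matched for 8 of the 10 genes, all but Slc40a1 and Trf. The Hamp window lies at chr7:30943980-30944279 and the Hamp2 window at chr7:30924132-30924431, both on the minus strand and written here in the direction of transcription. Capitals mark, from left to right, the 6 bases at the position of the BMP response element core GGCGCC and the STAT element.
Hamp: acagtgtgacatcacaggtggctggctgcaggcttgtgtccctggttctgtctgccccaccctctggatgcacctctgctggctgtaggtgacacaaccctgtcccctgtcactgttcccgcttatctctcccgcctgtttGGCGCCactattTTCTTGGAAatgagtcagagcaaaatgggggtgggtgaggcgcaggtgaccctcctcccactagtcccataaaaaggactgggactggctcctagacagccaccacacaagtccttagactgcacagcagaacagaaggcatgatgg
Hamp2: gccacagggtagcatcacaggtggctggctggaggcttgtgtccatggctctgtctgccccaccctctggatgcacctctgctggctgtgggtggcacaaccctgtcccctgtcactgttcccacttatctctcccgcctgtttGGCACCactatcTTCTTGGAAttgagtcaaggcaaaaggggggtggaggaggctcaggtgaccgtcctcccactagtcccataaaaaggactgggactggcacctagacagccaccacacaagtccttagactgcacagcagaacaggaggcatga
Of 297 bases that align without gaps, 276 were identical (92.9%). The hexamer began at position -109 relative to the Hamp start site, and the aligned Hamp2 hexamer differed from it by 1 substitution, G145A, with Hamp first and the position counted from 1 at the 5′ end of the Hamp window. The letters TTCTTGGAA stood in both, from -97 in Hamp and from -94 in Hamp2. Among 32851 promoter windows of the same length, 11.9% held GGCGCC and 8.3% held TTCNNNGAA. Both motifs read the same on either strand, and the matches did not overlap. Of the other genes matched, Tfrc held GGCGCC, and none held TTCNNNGAA. A match is a match of letters only.

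The level of a probe is given below as log2 signal relative to the 75th percentile of its own array, and every difference is Rap1-deficient minus wild type on that log2 scale. Levels are not compared between probes. Array pairs correlated between 0.9835 and 0.9928 over 14066 tested genes, and no array had a saturated spot. The share of probes read well above background ran from 50.03% to 65.34%. The 75th percentile itself parted by genotype. It was 219.8 to 226.9 on Rap1-deficient arrays and 178.9 to 209.3 on wild-type arrays, without overlap. The part of this value in the differences of single genes was not tested. The Terf2ip probe A_52_P381806 was well above background in 0 of 4 Rap1-deficient livers (-6.57 to -5.65) and in 4 of 4 wild-type livers (0.03 to 0.23, limma, adjusted p = 7.09e-06). A second Terf2ip probe, A_55_P2094079, went the other way, at 0.03 to 0.44 in Rap1-deficient livers and -1.12 to -0.69 in wild-type livers (adjusted p = 0.127). All 12 hepatocyte markers tested, among them Alb and Apoa1, were well above background on all 8 arrays. Xist was well above background on 8 arrays, and of 4 Y-linked genes with a probe, 1 was well above background, on 1 array.

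None of the iron genes differed between genotypes past the threshold. All 10 were well above background on all 8 arrays, and 0 of 10 passed at an adjusted p under 0.05 in limma across 14066 genes, where 0.0142% of all genes passed. Of the 12 probes that could be tested, 0 passed, against 0.00644% of the 31068 probes tested. At an unadjusted p under 0.05 the count was also 0, against 6.36% of genes, and the genotypes were without overlap in 0 of the 10, against 4.31% of genes. The differences of the 10 genes ran from -0.12 (Ftl1) to 0.36 (Bmp6), with a median of -0.02 beside 0.02 for all genes tested. Under the 3 scalings based on quantile normalization the median of the 10 was 0.00 to 0.04, beside 0.01 to 0.02 for all genes. The count above 0 was 4 of 10, and 5 to 7 of 10 under those scalings. For 6 genes, Tfr2, Trf, Fth1, Ftl1, Slc40a1 and Hfe, the 95% interval of the difference lay within 1.5-fold either way. For Hamp, Hamp2, Tfrc and Bmp6 it was wider, and differences inside those intervals could not be told from 0 with 4 mice per genotype.

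**Figure D1:**
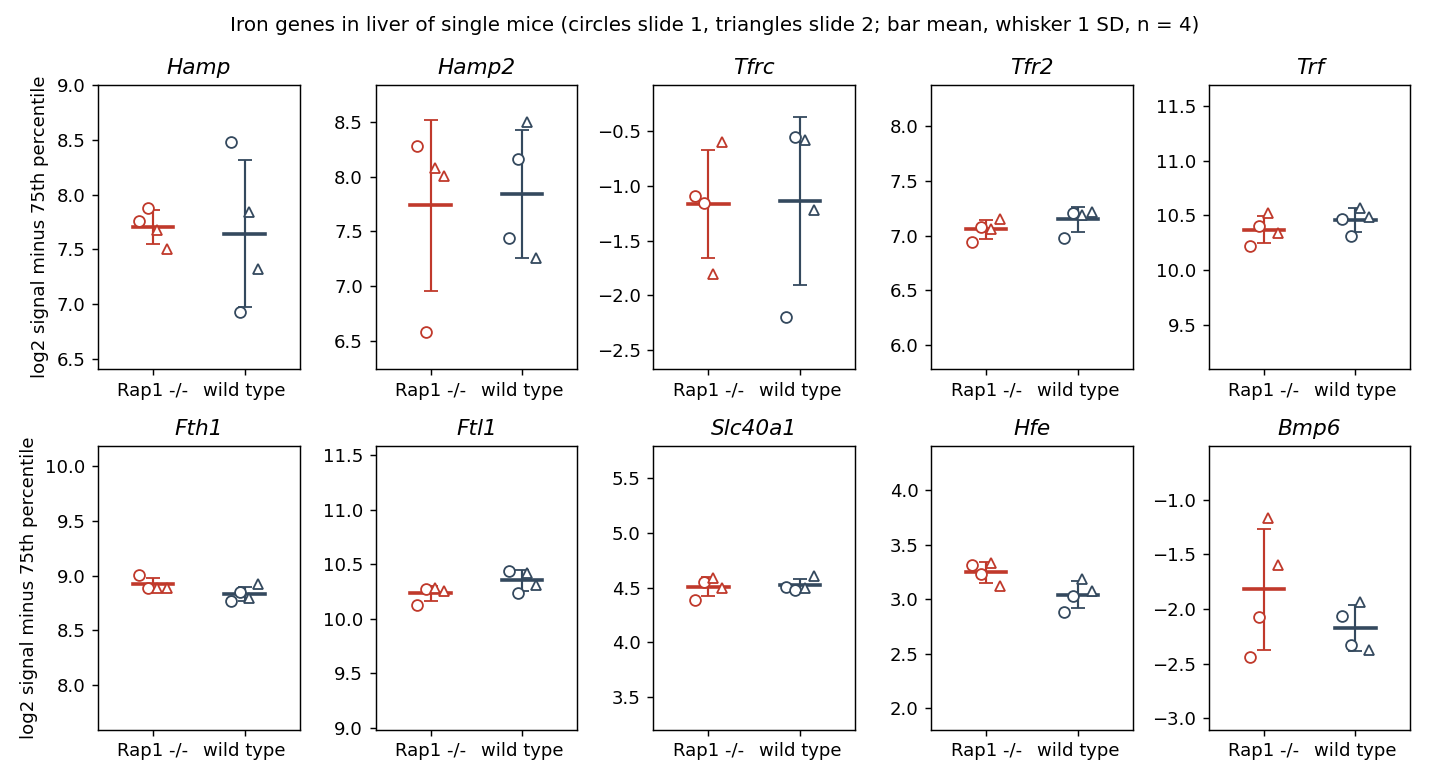
Level of each iron gene by mouse (log2 signal minus the 75th percentile of the array), with the Rap1-deficient mice left of the wild-type mice. Circles are slide 1, triangles slide 2, bars the mean and whiskers 1 SD (n = 4). Every panel spans the same range of log2 units, and the points of Hamp2 (6.58 to 8.28 in Rap1-deficient liver) lie far wider apart than those of Fth1 (8.89 to 9.01).

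Hamp, the main hepcidin gene, was level on average but unevenly spread. Hamp read 7.76, 7.88, 7.68 and 7.50 in Rap1-deficient mice 1 to 4, against 8.48, 6.93, 7.84 and 7.32 in wild-type mice 1 to 4. The highest and the lowest of the 8 livers were both wild type and on the same slide, and all 4 Rap1-deficient livers lay between them. The means were 7.71 ± 0.16 in Rap1-deficient and 7.64 ± 0.67 in wild-type liver (SD, n = 4 each), a difference of 0.06 (SE 0.30, 95% interval -0.61 to 0.74, limma adjusted p = 0.99, two-sided exact permutation test p = 0.857). The interval spans 0.656-fold to 1.67-fold. Within slide 1 the difference was 0.12 and within slide 2 it was 0.01. The sign of so small a difference depended on the scaling: it was -0.01 after normexp correction with quantile normalization.

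Hamp2, the second hepcidin gene, varied widely in both genotypes. Its probe read 8.28, 6.58, 8.08 and 8.01 in Rap1-deficient livers, against 7.44, 8.16, 8.50 and 7.26 in wild-type livers. Rap1-deficient mouse 2 stood apart as the lowest of the 8, while the other 3 lay within the wild-type range. The means were 7.74 ± 0.78 in Rap1-deficient and 7.84 ± 0.59 in wild-type liver (SD, n = 4 each), a difference of -0.10 (SE 0.41, 95% interval -1.03 to 0.83, limma adjusted p = 0.986, exact permutation test p = 0.857). Without Rap1-deficient mouse 2 the difference was 0.28. The wild-type liver with the most Hamp signal, mouse 1, was next to lowest of its genotype for Hamp2, and the wild-type liver with the least Hamp signal, mouse 2, was next to highest. Over the 8 mice the 2 probes correlated at r = -0.24 (exact permutation p = 0.546; Spearman's rho = -0.14, p = 0.752), with -0.47 within slide 1, 0.95 within slide 2 and 0.08 without wild-type mice 1 and 2, so no common course of the hepcidin probes was detected. Whether each probe reads its own transcript alone was not tested, as probe sequences were not used here.

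Of the genes upstream of hepcidin, Hfe came nearest to a difference. Hfe encodes the MHC class I-like protein that is mutated in hereditary hemochromatosis and takes part in iron sensing by hepatocytes. It read 3.31, 3.23, 3.33 and 3.12 in Rap1-deficient livers, against 2.88, 3.03, 3.18 and 3.07 in wild-type livers. Rap1-deficient mice 1 to 3 exceeded every wild-type value, and mouse 4 lay just below wild-type mouse 3. The means were 3.25 ± 0.09 in Rap1-deficient and 3.04 ± 0.12 in wild-type liver (SD, n = 4 each), a difference of 0.21 (SE 0.10, 95% interval -0.02 to 0.44) or 1.15-fold (0.984-fold to 1.35-fold). It did not pass (limma, adjusted p = 0.784, exact permutation test p = 0.0571, where 0.0286 is the smallest p that 4 against 4 mice can give). The difference was 0.31 within slide 1 and 0.10 within slide 2. It lay above 0 under all 19 alternatives, but these reuse the same mice. The other filters, the slide and replicate blocks and the variance model leave it at 0.21 by construction.

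Tfr2, the hepatocyte receptor that senses transferrin-bound iron, read 6.94, 7.08, 7.06 and 7.15 in Rap1-deficient livers, against 6.98, 7.21, 7.19 and 7.22 in wild-type livers. The groups overlapped through wild-type mouse 1, which lay below the other 3 wild-type livers. The difference was -0.09 (SE 0.10, 95% interval -0.32 to 0.13, limma adjusted p = 0.884; n = 4 each).

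Bmp6, the endothelial ligand that reports iron stores to hepatocytes, varied more between mice than Hfe and Tfr2. It read -2.44, -2.07, -1.17 and -1.60 in Rap1-deficient livers, against -2.06, -2.33, -1.94 and -2.38 in wild-type livers. Both the lowest and the highest liver were Rap1-deficient, and the high values came from slide 2. The means were -1.82 ± 0.55 in Rap1-deficient and -2.18 ± 0.21 in wild-type liver (SD, n = 4 each), a difference of 0.36 (SE 0.26, 95% interval -0.23 to 0.94, limma adjusted p = 0.843). The difference was 0.77 within slide 2 but -0.06 within slide 1, and 0.14 without Rap1-deficient mouse 3. Its size also depended on the scaling. It was 0.18 with normexp and quantile normalization, 0.18 in the authors' table and 0.46 with quantile normalization alone. Beside it, the other 12 sinusoidal endothelial markers averaged 1.71, 2.19, 2.37 and 2.24 in Rap1-deficient mice 1 to 4, against 1.75, 2.19, 1.96 and 2.27 in wild-type mice 1 to 4. Among Rap1-deficient mice the marker average had the same order of lowest (mouse 1) and highest (mouse 3) as Bmp6, and among wild-type mice it did not. This order was not particular to endothelial markers. The average of macrophage (Kupffer cell) markers was also lowest in Rap1-deficient mouse 1 (2.30) and highest in mouse 3 (3.01). The array of Rap1-deficient mouse 1 had the lowest share of probes well above background (50.03%). All 13 endothelial markers tested were well above background on all 8 arrays, and 8 of the 13 lay above 0 (6 within slide 1, 11 within slide 2). Their part in the Bmp6 values was not tested.

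Tfrc, the receptor that brings transferrin-bound iron into most cells, varied widely within each genotype. The probe that represents it, A_52_P228236, printed in 10 spots, read -1.09, -1.16, -1.81 and -0.60 in Rap1-deficient livers, against -2.20, -0.55, -0.58 and -1.22 in wild-type livers. The lowest and the highest liver were both wild type and on slide 1. The difference was -0.03 (SE 0.39, 95% interval -0.91 to 0.85, limma adjusted p = 0.996; n = 4 each), with 0.25 within slide 1 and -0.31 within slide 2. It was 0.00 and 0.02 under quantile normalization of the processed signal and in the authors' table. A second probe, A_65_P06446, correlated with the first across mice (r = 0.89 over 8 arrays) and differed by -0.27 (SE 0.40, adjusted p = 0.924 over probes). The remaining probe, A_51_P167876, was well above background on none of the 8 arrays and was not tested.

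Immature red cells also carry much Tfrc, so red cell markers are given beside it. The 7 red blood cell markers tested, of 9 with a probe, were well above background on all 8 arrays. They averaged 3.66, 3.47, 4.32 and 3.47 in Rap1-deficient livers, against 2.76, 4.49, 3.76 and 3.47 in wild-type livers. Wild-type mouse 1 was lowest and wild-type mouse 2 highest in both Tfrc and the markers, whereas Rap1-deficient mouse 3 was high in the markers and low in Tfrc. The beta-globin gene Hbb-bt read 5.54 to 6.57 in Rap1-deficient livers, against 4.24 in wild-type mouse 1, 6.74 in wild-type mouse 2 and values between these in the other wild-type mice. The part of blood in the Tfrc values was not tested.

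The genes that store, carry and export iron were among the steadiest. Fth1, the ferritin heavy chain that oxidizes iron for storage, read 9.01, 8.89, 8.89 and 8.89 in Rap1-deficient livers, against 8.77, 8.85, 8.80 and 8.92 in wild-type livers. The Rap1-deficient values were almost the same in 3 mice, and the groups overlapped through wild-type mouse 4 alone. The difference was 0.08 (SE 0.09, 95% interval -0.11 to 0.28, limma adjusted p = 0.884, exact permutation test p = 0.114; n = 4 each). Ftl1, the ferritin light chain, read 10.13, 10.27, 10.28 and 10.25 in Rap1-deficient livers, against 10.44, 10.24, 10.42 and 10.31 in wild-type livers. Only wild-type mouse 2 kept the groups from parting. The difference was -0.12 (SE 0.09, 95% interval -0.33 to 0.09, adjusted p = 0.852), and it turned to 0.01 to 0.04 under the 3 quantile-based scalings, so no direction can be given for Ftl1.

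Trf, the plasma iron carrier made by hepatocytes, read 10.22, 10.40, 10.52 and 10.34 in Rap1-deficient livers, against 10.47, 10.31, 10.57 and 10.49 in wild-type livers. The ranges overlapped over most of their length. The difference was -0.09 (SE 0.10, 95% interval -0.32 to 0.15, limma adjusted p = 0.905; n = 4 each), and -0.07 (SE 0.09) at the second probe, A_55_P2037585. Both signs turned under quantile-based scalings (0.04 to 0.09). The 2 Trf probes correlated at r = 0.40 over 8 arrays.

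Slc40a1, the only known iron exporter of mammalian cells and the target of hepcidin, read 4.39, 4.55, 4.59 and 4.50 in Rap1-deficient livers, against 4.51, 4.48, 4.50 and 4.61 in wild-type livers. All 8 livers lay within 1.16-fold. The difference was -0.02 (SE 0.09, 95% interval -0.22 to 0.18, or 0.86-fold to 1.14-fold, limma adjusted p = 0.99; n = 4 each). Liver macrophages, or Kupffer cells, are a main site of Slc40a1, and its probe lay at -0.02 while all 14 Kupffer cell markers tested, Slc40a1 included, lay below 0 (median -0.13, 0 of 14 past the threshold). Of these, 13 were well above background on all 8 arrays. Without Slc40a1 these markers averaged 2.30, 2.96, 3.01 and 2.66 in Rap1-deficient mice 1 to 4, against 2.80, 3.05, 2.61 and 3.08 in wild-type mice 1 to 4. Under the quantile-based scalings 13 of 14 lay below 0 and within slide 1 also 13 of 14, but within slide 2 only 4 of 14 did. Timd4, a marker of resident Kupffer cells, differed by -0.33 (SE 0.19, adjusted p = 0.811) and Clec4f by -0.20 (SE 0.15). The part of Kupffer cells in the Slc40a1 values was not tested.

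**Figure D2:**
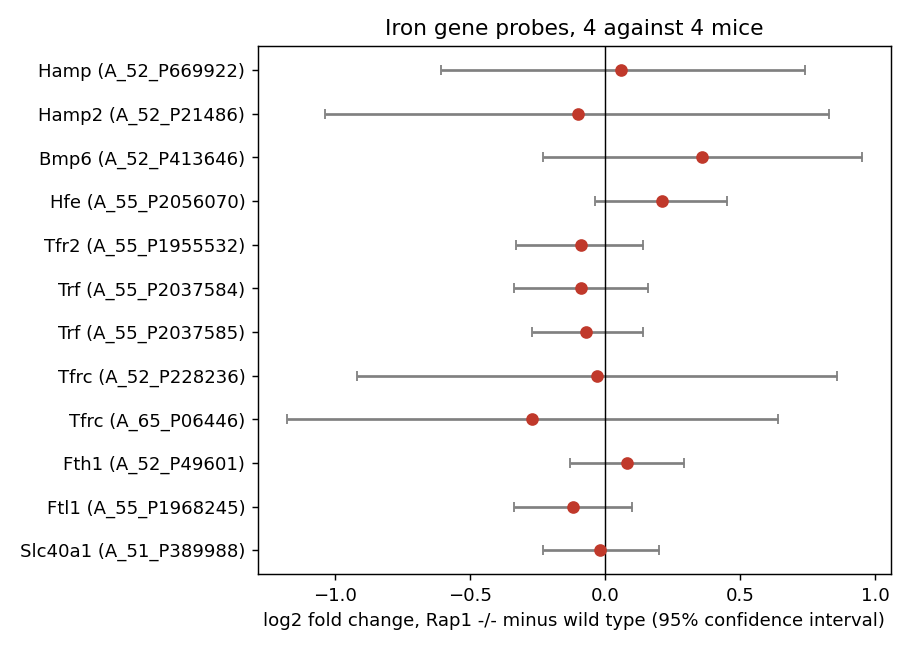
Difference of each tested iron gene probe, Rap1-deficient minus wild type (log2 fold change with its 95% confidence interval, limma fitted over 31068 probes, 4 mice each). Every interval crosses 0, with narrow intervals for Fth1, Ftl1, Slc40a1, Tfr2, Trf and Hfe and wide ones for Hamp, Hamp2, Tfrc and Bmp6.

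The 10 genes fell into steady and variable ones, by the spread between mice of 1 genotype. The SD within genotypes of Fth1 was 0.06, and 1.22% of all genes tested had a smaller one. It was 0.07 for Slc40a1 (2.14% smaller), 0.08 for Ftl1 (3.83%), 0.10 for Tfr2 (8.61%), 0.11 for Hfe (11.9%) and 0.12 for Trf (14.5%), beside 0.21 for the median gene. At the other end were Bmp6 at 0.42 (86.1% smaller), Hamp at 0.49 (90.5%), Tfrc at 0.65 (95.9%) and Hamp2 at 0.69 (96.6%). From the lowest to the highest of the 8 livers, the signal differed 1.18-fold for Fth1, 2.93-fold for Hamp and 3.77-fold for Hamp2. With normexp and quantile normalization the wild-type SD of Fth1 was 0.18, against 0.03 in Rap1-deficient livers. Tfrc then had SDs of 0.29 in Rap1-deficient and 0.43 in wild-type livers, and Bmp6 had 0.30 and 0.15. The spread was ranked against genes of every signal level, and the part of signal level in it was not tested.

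Of the 10 genes, Hamp had the spread that differed most by genotype, with an SD of 0.16 among Rap1-deficient and 0.67 among wild-type livers. The ratio of the SDs was 0.24, and 1.63% of genes tested had a smaller ratio. With the other scalings the ratio was 0.298 to 0.306 and the share 3.36% to 3.93%, and Fth1 then had the smaller ratio under normexp correction (0.169) and in the authors' table (0.167). The ratio rests on wild-type mice 1 and 2, was picked out after the values were seen, and is given with no test. Bmp6 had the opposite pattern, with SDs of 0.55 in Rap1-deficient and 0.21 in wild-type livers (ratio 2.62, 93.2% of genes smaller). With the other scalings its ratio was 1.6 to 2.05, and 77.6% to 87% of genes had a smaller one.

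**Figure D3:**
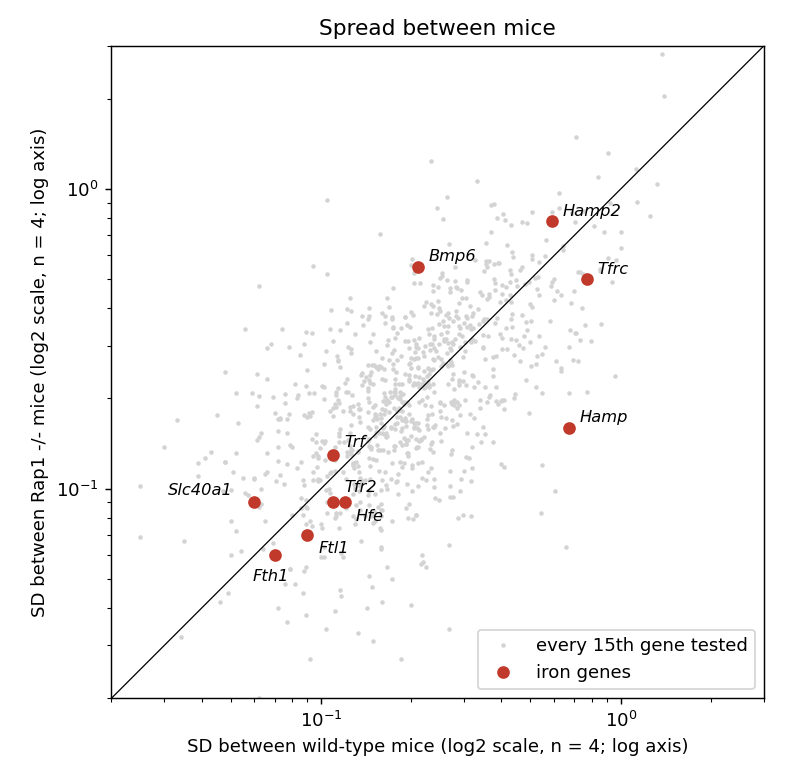
SD between mice on the log2 scale, Rap1-deficient (vertical, log axis) against wild type (horizontal, log axis), n = 4 each. Red points are the 10 iron genes, grey points every 15th gene tested, and the line marks equal SDs. Hamp lies far below the line (0.16 against 0.67) and Bmp6 above it (0.55 against 0.21), while the ferritins and Slc40a1 sit at the steady end.

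Hamp was set against 16 genes across the 8 mice, a choice made after the values of the iron genes were seen. The highest correlation belonged to a BMP target gene. Smad7, an inhibitory SMAD that BMP signalling induces, read -0.05, 0.50, 0.04 and -0.52 in Rap1-deficient livers, against 0.76, -0.55, -0.51 and -0.26 in wild-type livers. Wild-type mouse 1 was the highest of the 8 for Smad7, as for Hamp. The correlation was r = 0.78 (exact permutation p = 0.0177, adjusted 0.23) and Spearman's rho = 0.79 (p = 0.0279, adjusted 0.422), so it did not pass over the 16 relations. Without wild-type mice 1 and 2 it was 0.46, and it was 0.95 within slide 1 and -0.06 within slide 2. Among the 4 Rap1-deficient mice alone it was 0.95 and among the 4 wild-type mice alone 0.82.

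Id1, another BMP target, read 2.42, 2.38, 2.67 and 1.54 in Rap1-deficient livers, against 3.26, 2.12, 1.87 and 1.38 in wild-type livers. It correlated with Hamp at r = 0.68 (exact permutation p = 0.0621, adjusted 0.23, and rho = 0.60, p = 0.132, adjusted 0.422). The value was 0.71 without wild-type mice 1 and 2, 0.90 within slide 1 and 0.61 within slide 2. Atoh8, a further BMP target, stood at r = 0.72 (exact permutation p = 0.0415, adjusted 0.23, and rho = 0.69, p = 0.0694, adjusted 0.422), and at -0.02 without wild-type mice 1 and 2, 0.91 within slide 1 and -0.57 within slide 2. Smad6, the remaining BMP target set against Hamp, stood at r = 0.31 (exact permutation p = 0.467, and rho = 0.21, p = 0.619). Tfr2 stood at r = -0.69 (p = 0.055, adjusted 0.23, and rho = -0.64, p = 0.0962, adjusted 0.422; exact permutation) and at -0.50 without the same mice, -0.78 within slide 1 and -0.36 within slide 2. Tfrc stood at r = -0.66 (exact permutation p = 0.0719, adjusted 0.23, and rho = -0.45, p = 0.267, adjusted 0.61). Its r was 0.05 without wild-type mice 1 and 2, -0.95 within slide 1 and 0.14 within slide 2. Trf, Fth1, Ftl1, Slc40a1 and Hfe ran from r = -0.33 (Fth1, exact permutation p = 0.426) to 0.51 (Ftl1, p = 0.189). With Bmp6 itself the correlation of Hamp was r = 0.16 (exact permutation p = 0.688, and rho = 0.17, p = 0.703). With the inflammatory targets Socs3 and Saa1 it was r = -0.09 (p = 0.833, and rho = -0.12, p = 0.793, exact permutation) and r = -0.24 (p = 0.577, and rho = -0.33, p = 0.428). With Fgg, a fibrinogen chain of the acute phase, it was r = 0.23 (exact permutation p = 0.553, and rho = 0.62, p = 0.115). The 4 tested genes whose values were most like those of Hamp over the 8 arrays, out of 14061 searched, were Dxo (r = 0.944), Pabpc1l (0.935), Layn (0.931) and Rsc1a1 (0.925), a description only.

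**Figure D4:**
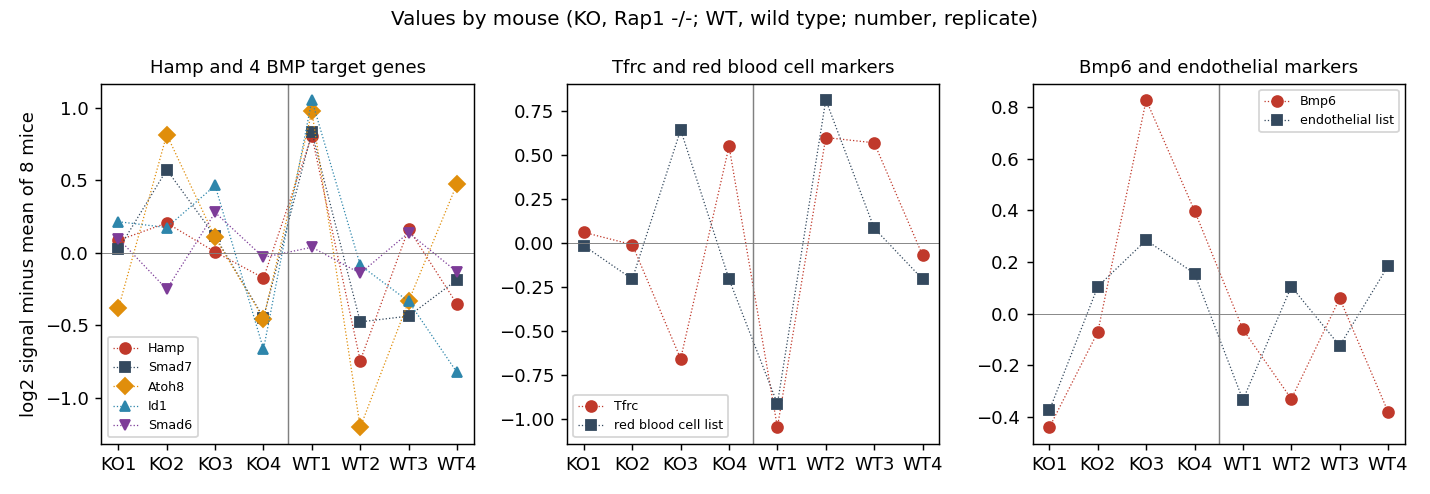
Values by mouse (log2 signal minus the mean of the 8 mice), with Rap1-deficient mice (KO) left of wild-type mice (WT): Hamp with the BMP targets Smad7, Atoh8, Id1 and Smad6, Tfrc with the mean of 7 red blood cell markers, and Bmp6 with the mean of 12 other endothelial markers. Hamp, Smad7, Atoh8 and Id1 are highest in wild-type mouse 1, and Smad6 is highest in Rap1-deficient mouse 3. Tfrc and the red cell markers are both lowest in wild-type mouse 1.

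The genes around the 10 were taken from lists of the pathway. Among 149 listed genes other than the 10 that were tested, 0 passed, and at an unadjusted p under 0.05 there were 3 higher and 4 lower in Rap1-deficient liver, a smaller share than the 6.36% of all genes. In the BMP and SMAD list, which holds receptors, SMADs and hemojuvelin, 12 of 22 genes lay above 0 (median 0.03), and none had an unadjusted p under 0.05. Under the quantile-based scalings 9 or 10 of 22 lay above 0, with medians of -0.02 or -0.01. Hjv, the hemojuvelin coreceptor, read 0.78, 1.16, 1.45 and 0.83 in Rap1-deficient livers, against 0.98, 0.52, 0.77 and 0.66 in wild-type livers (difference 0.32, SE 0.17, limma adjusted p = 0.797; n = 4 each). Smad1, a SMAD that BMP receptors activate, differed by 0.20 (SE 0.16), the type I receptor Bmpr1a by 0.08 (SE 0.09) and the type II receptor Bmpr2 by -0.12 (SE 0.09).

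In the list of interleukin 6 and STAT3 control, 3 of 9 genes lay above 0 (median -0.04), but 6 of 9 did within either slide alone (medians 0.09 and 0.06). Stat3, the transcription factor itself, differed by -0.32 (SE 0.18, limma adjusted p = 0.809), with -0.66 within slide 1 and 0.01 within slide 2. Jak1, a kinase that activates it, differed by 0.17 (SE 0.13), the receptor subunit Il6st by 0.08 (SE 0.14), and Inhbb, which encodes the activin B subunit, by 0.35 (SE 0.42).

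Among acute phase genes, which liver makes in inflammation, 18 of 20 lay below 0 (median -0.12 beside 0.02 for all genes), 0 passed, and 2 had an unadjusted p under 0.05, where 6.36% of all genes did. The count below 0 was 18 or 19 under the quantile-based scalings, 14 within slide 1 and 17 within slide 2. Hp, or haptoglobin, binds free hemoglobin and so spares its iron. It read 9.56, 9.63, 9.67 and 9.25 in Rap1-deficient livers, against 9.93, 10.11, 10.01 and 10.00 in wild-type livers. All 4 Rap1-deficient livers lay below all wild-type livers, as for 4.31% of genes in either direction. The difference was -0.49 (SE 0.12, limma adjusted p = 0.77, exact permutation test p = 0.0286, n = 4 each). It was -0.55 to -0.39 over the 19 alternatives, of which the filters, blocks and variance model leave it unchanged by construction. Itih4 also showed no overlap, with a difference of -0.29 (SE 0.10, adjusted p = 0.77). Orm3 differed by -0.49 (SE 0.26) and the metal-binding metallothionein Mt1 by -0.69 (SE 0.40), which read -1.48 within slide 1 and 0.10 within slide 2.

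Iron and heme transport genes other than the 10 had 8 of 20 members above 0 (median -0.03). After Hp, which is on this list too, the smallest p belonged to the metalloreductases Steap2 (-0.32, SE 0.15) and Steap3 (0.28, SE 0.18) and to Lrp1, the receptor for heme bound to hemopexin (-0.14, SE 0.11). Iron sensing and ferritin turnover had 7 of 10 above 0 (median 0.09), among them Ncoa4, the receptor that delivers ferritin to lysosomes (0.18, SE 0.13), the iron chaperone Pcbp1 (0.17, SE 0.14), the oxidative stress factor Nfe2l2 (0.19, SE 0.12) and Hif1a, the oxygen-sensing factor (0.19, SE 0.16). None of these had an unadjusted p under 0.05 apart from Hp.

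Among genes that use iron, the shares above 0 are read beside 56.1% of all genes tested. Mitochondrial iron and iron-sulphur assembly had 11 of 16 members above 0 (median 0.11, but 0.02 or 0.03 under the quantile-based scalings), and 0 passed. Iscu, the scaffold on which iron-sulphur clusters are built, read 4.84, 4.84, 4.73 and 4.81 in Rap1-deficient livers, against 4.47, 4.47, 4.50 and 4.56 in wild-type livers. The groups did not overlap, as in 3 of the 16 members and in 4.31% of all genes tested in either direction. The difference was 0.30 (SE 0.08, limma adjusted p = 0.77, n = 4 each). Its exact permutation test p = 0.0286 is the smallest that 4 against 4 mice can give. Nfs1, the cysteine desulphurase that supplies the sulphur, differed by 0.27 (SE 0.10) and the late-acting assembly gene Isca2 by 0.15 (SE 0.09), both without overlap, while the mitochondrial iron importer Slc25a28 differed by -0.17 (SE 0.09).

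Heme synthesis and breakdown had 10 of 13 members above 0 (median 0.13, but 8 of 13 and 0.07 or 0.08 under the quantile-based scalings), and 0 passed. Uros, an enzyme of the porphyrin steps, read 2.94, 3.12, 2.78 and 2.79 in Rap1-deficient livers, against 2.58, 2.35, 2.50 and 2.75 in wild-type livers, without overlap (difference 0.36, SE 0.12, limma adjusted p = 0.77; n = 4 each). The early pathway enzyme Alad differed by 0.16 (SE 0.10) and the biliverdin reductase Blvra by 0.15 (SE 0.08), the latter without overlap. In this list 2 of 13 members were without overlap, against 4.31% of all genes tested in either direction. Alas1, the first enzyme of hepatic heme synthesis, picked out after its values were seen, read 8.53, 8.05, 5.46 and 8.62 in Rap1-deficient livers, against 6.83, 8.48, 7.99 and 7.46 in wild-type livers, so that Rap1-deficient mouse 3 lay far below every other liver.

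The remaining marker lists showed no passing gene either. Hepatocyte markers had 5 of 12 above 0 (median -0.01). Alb, or albumin, differed by -0.21 (SE 0.09, limma adjusted p = 0.77) without overlap, as for 4.31% of all genes tested in either direction. Under the quantile-based scalings Alb differed by 0.00 to 0.02. Ahsg (-0.15, SE 0.11) also turned above 0 with these scalings, as did Serpina1a (-0.19, SE 0.11) with normexp correction and in the authors' table. The urea cycle enzyme Cps1 differed by 0.25 (SE 0.18). Of endothelial markers, Lyve1 differed by -0.67 (SE 0.29, adjusted p = 0.779), Tek by 0.50 (SE 0.28), Fcgr2b by 0.39 (SE 0.25) and Kdr by -0.16 (SE 0.12). Of the Kupffer cell genes not yet given, C1qc differed by -0.29 (SE 0.18) and Cd5l by -0.25 (SE 0.22). Red blood cell markers had 6 of 7 above 0 (median 0.19), with medians of 0.01 within slide 1 (4 of 7 above 0) and 0.37 within slide 2 (6 of 7). Among them were Slc4a1 at -0.32 (SE 0.16), Alas2 at 0.27 (SE 0.28), Hbb-bt at 0.28 (SE 0.48) and Hbb-b2 at 0.21 (SE 0.40). Near-identical copies among the globin, Saa and Serpina1 genes may share signal.

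**Figure D5:**
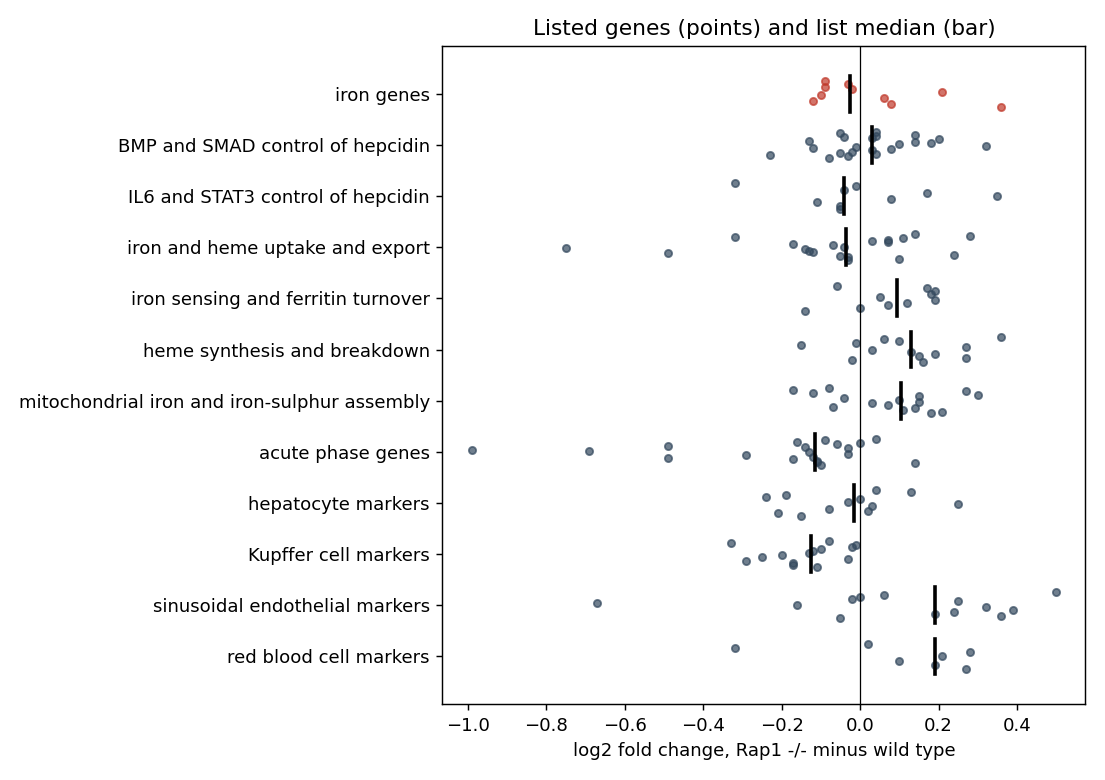
Difference of each tested gene, Rap1-deficient minus wild type (log2 fold change, 4 mice each), by list, with the 10 iron genes in red and a black bar at each list's median. The iron genes lie around 0 (median -0.02), the acute phase and Kupffer cell lists lie mostly left of 0 (medians -0.12 and -0.13), and the heme and iron-sulphur lists have medians of 0.13 and 0.11, where 56.1% of all genes tested lie right of 0.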

How the data were processed

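RNA of 8 livers was read on 8 Agilent 1-colour (Cy3) arrays. Per the file headers, spot values are fluorescence intensity, extracted with Feature Extraction 10.7.3.1 on an array annotated on mm9. The authors deposited the processed signal, an intensity from which background was subtracted and which carries no scaling between arrays, and a table on the log2 scale, for which the submitters' processing notes name limma. Set against normexp-corrected (offset 50), quantile-normalized scanner values, this log2 table differed by a median of 0.00144, with column medians of 6.39 to 6.40, so genes were not centred.

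Control spots and outlier flags were left out, repeated spots of a probe averaged, and the log2 processed signal expressed relative to each array's 75th percentile, which was 219.8 to 226.9 in Rap1-deficient and 178.9 to 209.3 in wild-type arrays. The number of arrays limits the precision. Accessions were named through RefSeq (GRCm38.p6, names only), which gave 26056 of 55681 probes a symbol. Probes well above background on at least 4 of 8 arrays were tested (31068), and a gene was represented by its brightest tested probe (14066 genes). Genotypes were compared with limma 3.58.1 (lmFit, eBayes) in R 4.3.3 without covariates, with Benjamini-Hochberg adjustment over all genes or probes. SEs and intervals are limma's. For single genes the exact permutation test (two-sided) ran over 70 partings of the mice, and for correlations over 40320 orders. The procedure was tested on simulated data.

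Named genes were the 10 iron genes with all probes, Terf2ip, up to 4 genes with the smallest p of each other list, and the 4 genes most correlated with Hamp. A gene that this rule names is not reported here. The members and lists were chosen with earlier results of these data known. Alternatives were normexp with quantile normalization (on median spot and background signals, since the files hold no mean signal), quantile normalization alone, the authors' table, other filters, slide as a block or alone, the replicate number as a block, another variance model, the mean over probes and each mouse left out. Counts of list genes above 0 and SD ratios under other scalings were added after seeing the data. Arrays came from 2 slides with both genotypes on each, and position on the slide and genotype cannot be told apart. Same-numbered mice did not deviate together (correlations of -0.18 to 0.0969), so the numbers were not taken as pairs.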

Additional observations from a re-analysis of the deposited data

Results flagged for a closer look

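A mouse stood apart from the other 3 of its genotype, by the gap to its neighbour relative to the range of the 4, in 8 of 116 groups examined (58 probes in both genotypes), where chance gives about 1 in 20. Among the iron genes these were Hamp2 in Rap1-deficient mouse 2 (6.58, the others 8.01 to 8.28), Fth1 in Rap1-deficient mouse 1 (9.01, the others all 8.89), Ftl1 in Rap1-deficient mouse 1 (10.13, the others 10.25 to 10.28) and Tfr2 in wild-type mouse 1 (6.98, the others 7.19 to 7.22).

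The remaining 4 were Nfe2l2 in Rap1-deficient mouse 1 (3.70, the others all 3.66), Tek in Rap1-deficient mouse 1 (-2.15, the others -1.37 to -1.24), Hbb-bt in Rap1-deficient mouse 3 (6.57, the others 5.54 to 5.70) and Ahsg in wild-type mouse 1 (10.89, the others 10.65 to 10.68).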

How the results depend on the processing

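The count of iron genes past the threshold, and of their probes, was 0 under every alternative it was computed for, the slide and replicate blocks included (replicate block, 0 genes and 0 probes). Over 19 alternatives the 10 genes gave 190 differences, of which 167 kept their sign, 23 reversed and 0 passed (smallest adjusted p = 0.763, limma). In this balanced design the other filters, the slide and replicate blocks and the variance model leave a probe's difference unchanged. The signs under those alternatives were therefore fixed in advance. Normexp with quantile normalization reversed Hamp (-0.01), Trf (0.06; 0.04 at probe A_55_P2037585), Ftl1 (0.01), Alb (0.00), Serpina1a (0.04) and Ahsg (0.02). Quantile normalization alone reversed Tfrc (0.00), Trf (0.04; 0.09 at the second probe), Ftl1 (0.04), Alb (0.02) and Ahsg (0.03). The authors' table reversed Hamp (0.00), Tfrc (0.02), Trf (0.06; 0.08), Ftl1 (0.04), Alb (0.01), Serpina1a (0.07) and Ahsg (0.01). Within slide 1, Tfrc (0.25) and Bmp6 (-0.06) reversed; within slide 2, Hamp2 (0.17), Stat3 (0.01), Pcbp1 (-0.01), Mt1 (0.10), Cps1 (0.00), C1qc (0.02) and Clec4f (0.06) did. Leaving out 1 mouse gave -0.17 to 0.34 for Hamp, -0.30 to 0.28 for Hamp2, -0.39 to 0.18 for Tfrc, -0.04 to 0.02 for Slc40a1, -0.15 to 0.68 for Hbb-bt and -0.13 to 0.54 for Hbb-b2. The Terf2ip probe A_52_P381806 passed in 16 of 17 alternatives, and within slide 1 it was -6.10 (limma, adjusted p = 0.0828). Its difference was -6.42 with the scaling used above, but -2.32 with normexp and quantile normalization and -2.31 in the authors' table. In Rap1-deficient livers this probe was not well above background. The cause of these changes was not tested. The replicate block changed no call. All 10 genes were well above background on all 8 arrays. With 4 mice per genotype the interval of Hamp2 ran from 0.488-fold to 1.77-fold. With normexp and quantile normalization the SE was 0.21 for Tfrc and 0.15 for Bmp6, against 0.39 and 0.26 with the scaling used above. For Hamp it was 0.29 against 0.30. The part of signal level in these widths was not tested.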
